A study of Mus musculus with 8 samples.

Results

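The genes described are the transcription programme of the integrated stress response, taken as the 10 rows of the count table named Atf3, Atf4, Atf5, Ddit3, Ddit4, Chac1, Trib3, Asns, Sesn2 and Ppp1r15a, out of 41730 rows in all. They were chosen by name as the ATF4 and CHOP axis with its targets, with earlier results of these data known. None of them has a further copy in the table. RNA-seq libraries came from hanging-drop spheroids of 4T1, a mouse mammary carcinoma line. Lentiviral transduction gave the cells either a control shRNA of scrambled sequence (shCtrl, 4 libraries) or an shRNA directed at Tlr7 (shTlr7, 4 libraries). Every library thus comes from transduced cells, and the labels name a single hairpin per group and no clone. Whether replicates were grown as separate cultures is not stated, and the p-values therefore reflect sample-to-sample spread that may be technical.

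The integrated stress response begins when one of several kinases phosphorylates the translation initiation factor eIF2, which slows general protein synthesis while the mRNA of the transcription factor ATF4 is translated more. ATF4 and its partners then induce genes for amino acid supply, for redox balance and for further transcription factors, among them CHOP, the product of Ddit3. A late product of the programme, GADD34, encoded by Ppp1r15a, brings a phosphatase to eIF2 and closes the loop. RNA counts report the transcripts only, and neither eIF2 phosphorylation nor ATF4 protein was measured here.

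ATF4 binds DNA as a partner of C/EBP factors, at a composite element whose letters were searched as TGATGNAA on both strands of RefSeq promoter windows (GRCm38.p6, 250 bases before to 50 after each start). These windows were found for all 10 genes, as 11 windows. The element was present in 4 of the 10 genes (Atf3, Chac1, Trib3 and Asns), against 3.97% of all 32851 windows of this length. The cyclic AMP response element TGACGTCA, which ATF factors also bind, was present in Ppp1r15a alone of the 10, against 1.79% of all windows. Whether a match goes with the size of a gene's change was not tested. The matches that lie upstream of the start are shown with their flanks, with the matched letters in capitals. For Atf3 and Chac1 these letters are the element read on the other strand.
Atf3: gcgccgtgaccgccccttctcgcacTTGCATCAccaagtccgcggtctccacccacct
Chac1: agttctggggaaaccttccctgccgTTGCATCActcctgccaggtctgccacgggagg
Asns: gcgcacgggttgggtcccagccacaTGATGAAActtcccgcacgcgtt
Ppp1r15a: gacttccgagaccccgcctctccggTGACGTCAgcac

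These stretches lie at chr1:191183411-191183468 (minus strand) for Atf3, chr2:119351024-119351081 (plus strand) for Chac1, chr6:7693210-7693257 (minus strand) for Asns and chr7:45526269-45526305 (minus strand) for Ppp1r15a. The match begins 110 bases upstream of the start in Atf3, 193 in Chac1, 23 in Asns and 12 in Ppp1r15a, while the match in Trib3 lies downstream of its start, at position 15, and is not shown. The printed matches do not overlap each other. A longer form of the element, TGATGNAAT, which contains the shorter one, was present in 0 of the 10 genes and in 0.965% of all windows. A match is a run of letters and not evidence of binding, and a window without one says nothing about the factor.

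Library totals ranged from 18.1 to 93.8 M counts, and each of the 10 genes had between 284 and 26098 counts in every library. Tlr7, the targeted gene, had 2, 3, 2 and 2 counts in the shCtrl libraries and 0, 4, 3 and 0 in the shTlr7 libraries, was removed by the low-count filter, and a lower level in shTlr7 was not detectable at this depth. All 9 epithelial markers passed that filter, and their summed level was 6200 to 6730 CPM (counts scaled to a library of 1 M) in shCtrl and 4790 to 5280 CPM in shTlr7. The keratin genes Krt8, Krt18, Krt19, Krt7 and Krt14 fell, with log2 fold changes from -0.37 for Krt8 to -3.50 for Krt14, while Epcam, Cdh1 and Cldn3 rose, by 0.15 to 0.56. The 5 endothelial markers did not pass and summed to at most 0.75 CPM in any library. Of 8 fibroblast markers 2 passed, Pdgfra at 42.3 CPM in shCtrl and 43.6 CPM in shTlr7, and Col1a1 at 2.22 and 1.64 CPM. Neither was called, and Col3a1 and Thy1 were at 0 in all libraries. Of 10 leukocyte markers 3 passed, with a summed level of 87.1 to 96.5 CPM in shCtrl and 46.2 to 63.6 CPM in shTlr7, which was almost all Cd68 and Cd14. These went opposite ways, since Cd68 rose (log2 fold change 0.72, edgeR adjusted p = 1.41e-04) while Cd14 (-1.82) and Csf1r (-2.17) fell, and Adgre1 and Lyz2 were at 0 in all libraries. In bulk RNA, fewer cells of a type and less RNA per cell cannot be told apart, and the part of these markers in the results that follow was not tested. The libraries numbered 4 shared part of their deviation: those of shCtrl replicate 4 and shTlr7 replicate 4 from their group means correlated at r = 0.38 across 13393 genes. In shCtrl, replicate 4 stood clearly apart, with chi-square per degree of freedom of 12.1 to 22.5 against the others, beside 2.18 to 3.3 among those. In shTlr7 the margin was small, at 11.3 to 15.7 beside 4.91 to 11.2. Results that rest on the libraries numbered 4 are given with and without them.

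Transcripts of the programme were higher in shTlr7 for most of its genes. Of the 10 genes, all of which passed the low-count filter, 8 rose (Atf3, Atf4, Atf5, Ddit3, Chac1, Trib3, Asns and Sesn2), 0 fell, and Ddit4 and Ppp1r15a did not pass the threshold (edgeR quasi-likelihood test, Benjamini-Hochberg adjusted p under 0.05 over all 13393 tested genes). Among all tested genes 56.1% were called in either direction and 29.3% were called higher, so calls were common in this comparison. The median log2 fold change of the 10 genes was 0.78, beside 0.011 over all tested genes. Since the 10 genes were chosen with earlier results of these data known, these contrasts with all tested genes are descriptions only. For 7 of the 10 genes the CPM ranges of the groups were separate, each higher in shTlr7, beside 26% of all tested genes separate in that direction and 49.8% in either. An estimated rise of at least 2-fold, with a call against no change, was found for 3 of the 10, Atf3, Chac1 and Trib3. The same held for 3.29% of all tested genes. That count did not test for a 2-fold rise, and a test that required a fold of 1.5 (glmTreat) kept only Atf3 and Atf5. At an unadjusted p under 0.05 the count was 9 higher and 0 lower, DESeq2 called 8 higher and 0 lower, limma-voom called 9 higher and 0 lower, and without both libraries numbered 4 edgeR called 9 higher and 1 lower. Scaling by library size alone, which moved the median of all genes up by 0.103, called 9 higher and 0 lower among the 10 genes, and changed the split over all genes from 3927 higher and 3590 lower to 5513 and 2491.

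**Figure D1:**
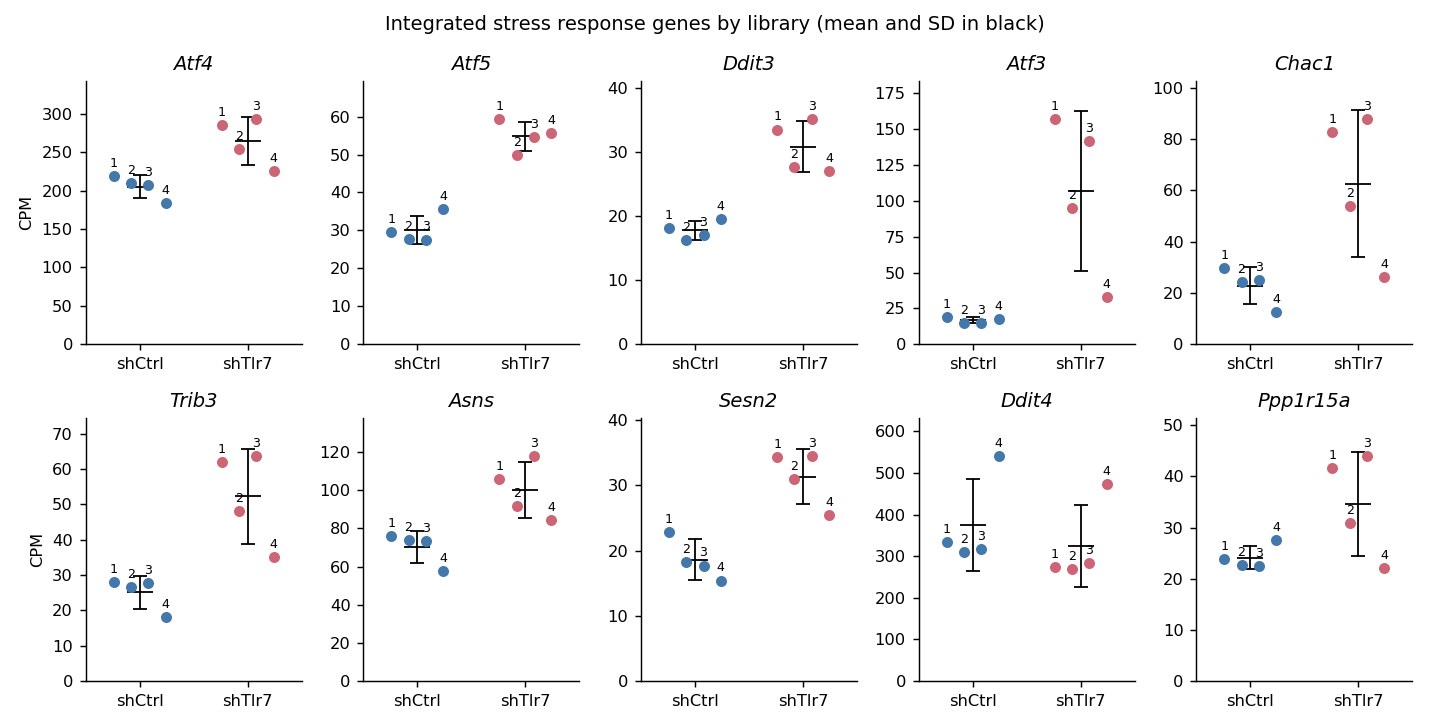
Levels in CPM (vertical axes, each from 0) of the 10 genes in the 4 shCtrl (blue) and 4 shTlr7 (red) libraries, with the replicate number beside each point and the mean and SD of a group in black. Replicate 4 of shTlr7 is the lowest of its group for 8 of the 10 genes and the highest for Ddit4.

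Atf4, which encodes the central transcription factor of the response (chromosome 15, 80255184 to 80257545), showed a small rise. Its level was 219, 210, 207 and 184 CPM in shCtrl replicates 1 to 4, and 286, 254, 293 and 226 CPM in shTlr7 replicates 1 to 4. Every shTlr7 library lay above every shCtrl library, and replicate 4 was the lowest of its group in both. The log2 fold change was 0.37 ± 0.08 (SE), or 1.29-fold (edgeR adjusted p = 0.00244).

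Atf5 encodes a related basic leucine zipper factor whose translation is also favoured when eIF2 is phosphorylated (chromosome 7, 44812256 to 44816658). It stood at 29.7, 27.8, 27.6 and 35.6 CPM in shCtrl, and at 59.3, 50.0, 54.6 and 55.6 CPM in shTlr7. The groups lay well apart, and replicate 4 was the highest shCtrl library but lay within the other shTlr7 libraries. This was a 1.82-fold rise, with a log2 fold change of 0.86 ± 0.08 and the lowest p among the 10 genes (edgeR adjusted p = 1.66e-06). Of its exon bases, 4.1% overlap exons of Il4i1 or Nup62 on the opposite strand, and reads of overlapping genes cannot be told apart without the strand setting.

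Ddit3, whose product CHOP dimerises with C/EBP factors and carries the later, death-associated arm of the response, also rose (chromosome 10, 127290793 to 127296291). Its level was 18.1, 16.3, 17.0 and 19.6 CPM in shCtrl, and 33.5, 27.7, 35.1 and 27.1 CPM in shTlr7. All shTlr7 libraries exceeded all shCtrl libraries, with replicates 1 and 3 above replicates 2 and 4. The log2 fold change was 0.80 ± 0.09, or 1.74-fold (edgeR adjusted p = 1.16e-05). Exons of Mars and Gm4189 on the opposite strand overlap 4.7% of its exon bases.

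Atf3 encodes a stress-induced factor that acts downstream of ATF4 and can also be induced by other signals (chromosome 1, 191170296 to 191183333). It had the largest rise of the 10 genes and the widest spread in shTlr7. The shCtrl libraries held 18.8, 14.8, 14.8 and 17.9 CPM, and the shTlr7 libraries held 157, 94.8, 142 and 33.1 CPM. Replicate 4 of shTlr7 was far below the other 3 of its group, yet above all shCtrl libraries. The log2 fold change was 2.69 ± 0.51, or 6.45-fold (edgeR adjusted p = 0.00453), and 3.02 ± 0.28 without both libraries numbered 4 (edgeR adjusted p = 6.91e-04).

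Chac1 encodes an enzyme that degrades glutathione and is a sensitive target of ATF4 and its partners (chromosome 2, 119351242 to 119354326). In shCtrl it stood at 29.8, 24.2, 25 and 12.5 CPM, and in shTlr7 at 82.9, 53.7, 87.7 and 26.3 CPM. The groups overlapped, since shTlr7 replicate 4 fell between the shCtrl libraries, and replicate 4 was also the lowest in shCtrl. The rise was 2.73-fold, at a log2 fold change of 1.45 ± 0.45 (edgeR adjusted p = 0.0328). Leaving out any of the other 7 libraries ended this call, with adjusted p between 0.0505 and 0.0772 (edgeR), as did dropping the filter on low counts (edgeR adjusted p = 0.0512). It held without shTlr7 replicate 4 (1.70, edgeR adjusted p = 0.00615) and without both libraries numbered 4 (1.49, edgeR adjusted p = 0.00697).

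Trib3, a pseudokinase gene induced by ATF4 and CHOP whose product restrains both factors and AKT signalling, rose with them (chromosome 2, 152337425 to 152344060). The values were 28.1, 26.5, 27.6 and 18 CPM in shCtrl, and 62.0, 48.1, 63.7 and 35.2 CPM in shTlr7. Replicate 4 was the lowest of both groups, and the groups did not overlap. The log2 fold change of 1.06 ± 0.23 corresponds to 2.08-fold (edgeR adjusted p = 0.00577).

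Asns encodes asparagine synthetase, a classic ATF4 target of the amino acid response (chromosome 6, 7675165 to 7693209). Levels of 76.2, 73.8, 73.6 and 57.7 CPM in shCtrl stood against 106, 92.0, 118 and 84.6 CPM in shTlr7. Again the groups did not overlap and replicate 4 was the lowest of each. The difference was a log2 fold change of 0.51 ± 0.12, or 1.42-fold (edgeR adjusted p = 0.00577).

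Sesn2 and Ddit4 encode sestrin 2 and REDD1, stress-induced proteins that restrain the growth kinase complex TORC1, and their transcripts did not behave alike. For Sesn2 (chromosome 4, 132492804 to 132510456), 22.9, 18.2, 17.7 and 15.4 CPM in shCtrl stood against 34.4, 30.9, 34.5 and 25.5 CPM in shTlr7. It was higher in every shTlr7 library than in any shCtrl library, by 1.69-fold (log2 fold change 0.76 ± 0.12, edgeR adjusted p = 3.21e-04). Ddit4 (chromosome 10, 59949675 to 59951770) held 334, 310, 318 and 541 CPM in shCtrl, and 273, 269, 284 and 473 CPM in shTlr7. Replicate 4 was by far the highest of both groups, so the groups overlapped although the first 3 shTlr7 libraries lay below every shCtrl library. Its log2 fold change was -0.21 ± 0.27 (edgeR adjusted p = 0.552). With the libraries numbered 4 as a term it was -0.21 ± 0.035 (edgeR adjusted p = 3.28e-05), and without both of them it was -0.22 ± 0.04 (edgeR adjusted p = 2.34e-05), which makes Ddit4 the 1 gene of the 10 called lower in those fits. Leaving out shCtrl replicate 4 alone gave 0.01 (edgeR adjusted p = 0.968).

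Ppp1r15a, which encodes GADD34, the inducible subunit that ends the response, did not pass the threshold with all libraries (chromosome 7, 45522917 to 45526268). Its level was 23.8, 22.7, 22.5 and 27.5 CPM in shCtrl, and 41.7, 30.8, 44.0 and 22 CPM in shTlr7. The first 3 shTlr7 libraries lay above all shCtrl libraries, while shTlr7 replicate 4 lay below all of them. With all libraries it differed by 0.51 ± 0.22 on the log2 scale (edgeR adjusted p = 0.0815). It was 0.67 ± 0.12 without shTlr7 replicate 4 (edgeR adjusted p = 0.00126) and, with both libraries numbered 4 left out, 0.72 ± 0.16 (edgeR adjusted p = 0.0132). It also passed with limma-voom (0.52, limma adjusted p = 0.00267) and with library size alone (0.62, edgeR adjusted p = 0.0382).

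**Figure D2:**
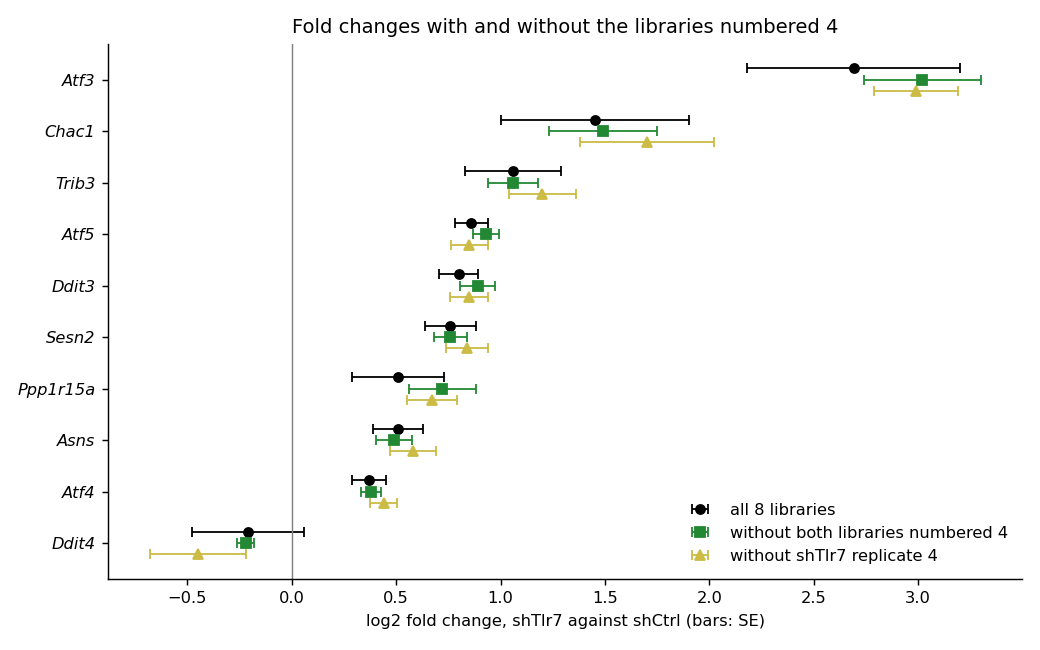
Log2 fold change of shTlr7 against shCtrl (horizontal axis) with its SE for the 10 genes, with all 8 libraries (black circles), without both libraries numbered 4 (green squares) and without shTlr7 replicate 4 (yellow triangles). Atf3 is highest in each fit, at 2.69, 3.02 and 2.99, and Ddit4 is the only gene below 0.

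The libraries of shTlr7 differed from one another in a shared way. Replicate 3 was the highest shTlr7 library for 7 of the 10 genes and replicate 1 for 2 (Atf3 and Atf5), while replicate 4 was the lowest for 8 and the highest for Ddit4. Among all tested genes, replicate 4 was the lowest shTlr7 library for 32.2% and the highest for 30.3%. Relative to the mean of shTlr7 in log2 CPM, replicate 4 lay at -1.46 for Atf3, -1.10 for Chac1, -0.60 for Ppp1r15a and -0.53 for Trib3, and at 0.58 for Ddit4. Within shCtrl, replicate 4 lay at -0.79 for Chac1, -0.45 for Trib3 and -0.28 for Asns, at 0.57 for Ddit4, and at 0.12 for Atf3 and 0.19 for Ppp1r15a. Chac1, Trib3, Asns, Sesn2 and Atf4 were thus low, and Ddit4 high, in the libraries numbered 4 of both groups, whereas Atf3, Ddit3 and Ppp1r15a were low in that of shTlr7 and above their group mean in that of shCtrl.

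By replicate number, the ratio of shTlr7 to shCtrl for Atf3 was 1.85 in the libraries numbered 4 and 8.13 between the means of replicates 1 to 3. For Ppp1r15a these ratios were 0.799 and 1.69, for Chac1 2.10 and 2.84, for Ddit3 1.38 and 1.88, and for Atf5 1.56 and 1.93. They were closer for Trib3, at 1.95 and 2.12, for Sesn2, at 1.66 and 1.70, and for Asns, at 1.47 and 1.41. The same held for Atf4, at 1.23 and 1.31, and for Ddit4, at 0.875 and 0.860. The ratio of the libraries numbered 4 rests on a single library per group, and its difference from the other ratio was not tested.

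Other transcripts also differed in the libraries numbered 4, though not always in both groups. Fosb, an immediate early gene, stood at 242 CPM in shCtrl replicate 4 against 36.6 to 58.1 CPM in the other shCtrl libraries, and at 36.1 CPM in shTlr7 replicate 4 against 13.8 to 24.4 CPM. Over all 22 immediate early genes the summed level ranged from 1810 to 3370 CPM in shCtrl and from 1720 to 2290 CPM in shTlr7, and the mean deviation of the tested ones from their group mean was 0.60 in shCtrl replicate 4 and -0.05 in shTlr7 replicate 4. Hypoxia genes deviated by 0.23 and 0.17 in these same libraries, but also by 0.15 in shTlr7 replicate 2. In shCtrl replicate 4 and shTlr7 replicate 4, heat shock genes deviated by -0.11 and 0.01, and glucocorticoid-induced genes by 0.01 and -0.34. The part of these shifts in the levels of the 10 genes was not tested.

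**Figure D3:**
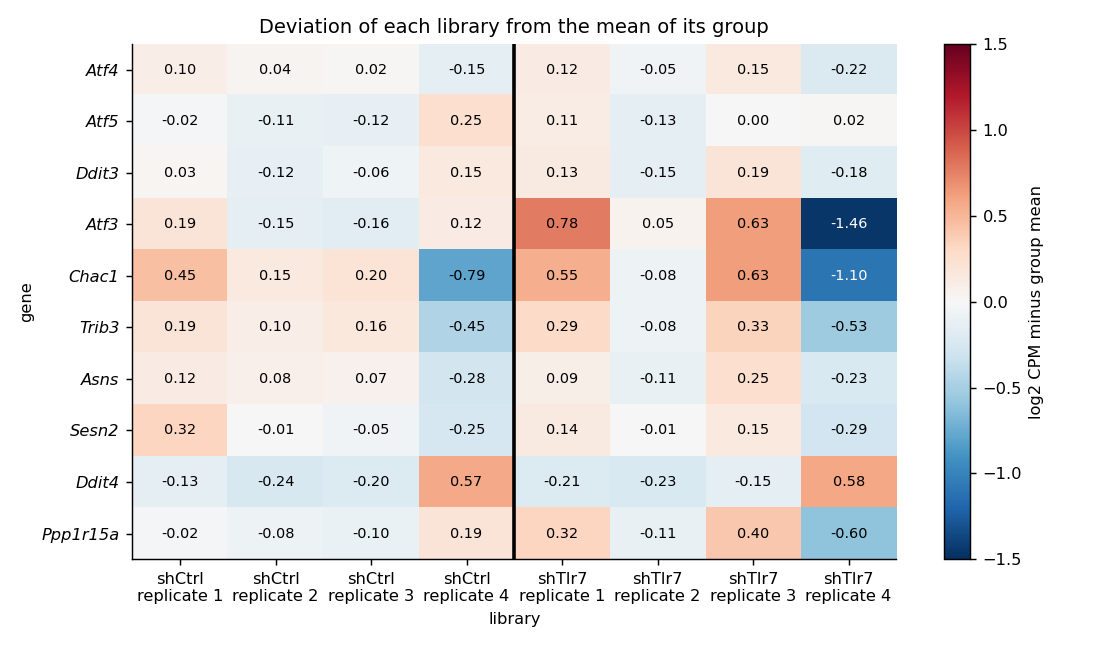
Difference between each library's log2 CPM and the mean of its group (colour and printed value) for the 10 genes (rows) in the 8 libraries (columns). The column of shTlr7 replicate 4 holds the lowest values, -1.46 for Atf3 and -1.10 for Chac1, and Ddit4 is at 0.57 and 0.58 in the libraries numbered 4.

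The spread between shTlr7 libraries differed widely among the 10 genes. Between the highest and the lowest shTlr7 library, Atf3 differed 4.74-fold, Chac1 3.34-fold, Ppp1r15a 2.00-fold and Trib3 1.81-fold, while Atf5 differed 1.19-fold and Atf4 1.29-fold. In shCtrl these ratios were 1.27 for Atf3, 2.37 for Chac1, 1.22 for Ppp1r15a and 1.56 for Trib3. The coefficient of variation of Atf3 was 52.2% in shTlr7 and 12.6% in shCtrl, and that of Ppp1r15a was 29.5% and 9.60%. The SD of log2 CPM in shTlr7 was larger than that of 99.9% of tested genes for Atf3, 99.6% for Chac1, 96.3% for Ppp1r15a, 94.4% for Trib3 and 94.0% for Ddit4. In shCtrl the corresponding shares were 74.7% for Atf3 and 64.1% for Ppp1r15a, but 97.3% for Chac1, 87.7% for Trib3 and 92.1% for Ddit4, whose spread was thus wide in both groups.

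Over the 10 genes the median SD of log2 CPM was 0.30 in shTlr7 and 0.18 in shCtrl, beside 0.0922 and 0.0972 over all tested genes. The SD was larger in shTlr7 than in shCtrl for 8 of the 10, the exceptions being Atf5 and Sesn2, and for 46.0% of all tested genes. Without shTlr7 replicate 4 the median SD of the 10 genes in shTlr7 was 0.180. No test of the spread was made, since 4 libraries per group give an SD of low precision.

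**Figure D4:**
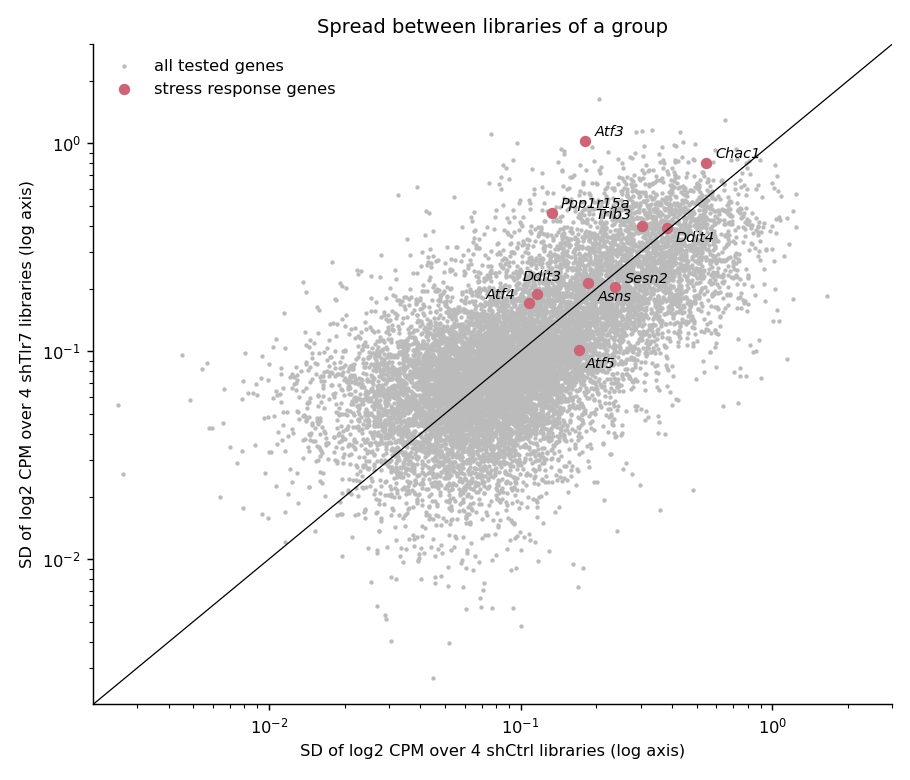
SD of log2 CPM over the 4 shTlr7 libraries (vertical log axis) against that over the 4 shCtrl libraries (horizontal log axis) for all tested genes (grey) and the 10 stress response genes (red, named), with the line of equal spread. Atf3, with an SD of 1.03 in shTlr7 and 0.18 in shCtrl, and Ppp1r15a, with 0.46 and 0.13, lie far above the line.

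Levels were compared between genes per kilobase of exon (GENCODE M21, GRCm38). In shCtrl, Ddit4 stood highest at 214 ± 63.0 CPM per kb (SD, n = 4), followed by Atf4 at 87.0 ± 6.35 and Asns at 25.7 ± 3.11. Atf5 (15.1 ± 1.87), Chac1 (14 ± 4.47) and Trib3 (11.8 ± 2.23) came next, with ranges of 1 SD that overlapped, as did those of Trib3 and Ddit3 (10.4 ± 0.846). The ranges of Ppp1r15a (8.21 ± 0.789) and Atf3 (7.70 ± 0.970) overlapped too, and Sesn2 was lowest at 5.33 ± 0.902 CPM per kb. In shTlr7 the order began with Ddit4 at 185 ± 56.4 and Atf4 at 112 ± 13.0 CPM per kb. Atf3, near the bottom of the order in shCtrl, came next there at 49.5 ± 25.9, followed by Chac1 at 38.3 ± 17.4, Asns at 36.6 ± 5.42, Atf5 at 27.5 ± 1.91 and Trib3 at 24.6 ± 6.29. The ranges of 1 SD around Atf3 and Chac1 overlapped those of all the others in this run, so the order of Atf3 and Chac1 among them is not set. The ranges of Atf5 and Trib3 also overlapped, as did those of Trib3 and Ddit3, the latter at 18 ± 2.37. Ppp1r15a at 11.8 ± 3.47 and Sesn2 at 9.02 ± 1.21 were lowest, and their ranges overlapped.

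Genes around the 10 were taken from 14 lists of the pathway and of neighbouring programmes, which hold 175 other genes. Some of these, unlike the 10, have further copies in the table, which were not added to the row used. Hspa1a, Hspa1b, Fkbp5, Atf6b and Bcat1 are of this kind, with 0 counts in the row used, and were not tested. Yars, Ppp1ca, Jund, Egr2 and Ier3 also have further copies. Of the 160 that were tested, 43 rose and 31 fell, with a median log2 fold change of 0.05. Under scaling by library size alone the counts were 74 and 14. In percent, 26.9% of the tested list genes were called higher and 19.4% lower, beside 29.3% and 26.8% of all tested genes.

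Upstream of ATF4, the transcripts of eIF2 kinases and their regulators went both ways: 4 of 10 rose and 2 fell, with a median of 0.08, and none was called lower under library size alone. Eif2ak2, the gene of the double-stranded RNA-activated kinase PKR, which interferon also induces, rose from 77.9 ± 3.73 to 168 ± 23.1 CPM (log2 fold change 1.11, edgeR adjusted p = 1.51e-06). Eif2ak1, the gene of the heme-regulated kinase HRI, had a log2 fold change of 0.31, and Oma1, a mitochondrial protease that signals to HRI, one of 0.69. Without shTlr7 replicate 2, or without shTlr7 replicate 3, 1 gene of this list was called lower. The next list held eIF2, its exchange factor eIF2B and the eIF2 phosphatase, with Eif2a and Eif2d, which encode separate initiation factors and no subunit of eIF2. Of its 13 tested genes, 5 rose and 3 fell (7 and 0 under library size alone). The eIF2B subunits Eif2b1 and Eif2b4 were at 0.43 and 0.23, the eIF2 subunit Eif2s2 at -0.22 and Eif2a at -0.20. Eif2s2 and Eif2a missed the threshold under library size alone (edgeR adjusted p = 0.0711 and 0.0589).

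Amino acid transporters were the list with the highest median after the 10 genes themselves, at 0.26. Of 11 tested, 6 rose and 0 fell (edgeR), beside 29.3% and 26.8% of all tested genes. At an unadjusted p under 0.05 also 0 were lower, and DESeq2 and limma-voom each gave 6 higher and 0 lower. Slc3a2, the heavy chain shared by several of these carriers, held 143, 139, 141 and 138 CPM in shCtrl, and 230, 197, 237 and 164 CPM in shTlr7. It was higher in all shTlr7 libraries, with replicates 1 and 3 on top and replicate 4 lowest, as for most of the 10 genes (log2 fold change 0.56 ± 0.10, edgeR adjusted p = 0.00127). The glutamine carrier Slc1a5 had a log2 fold change of 0.55 (edgeR adjusted p = 4.58e-06), Slc7a6 one of 0.31 and Slc7a3 one of 0.79, the last at a low level of 0.632 CPM in shCtrl.

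Enzymes of amino acid synthesis and one-carbon metabolism were split, with 6 of 13 tested genes higher and 3 lower and a median of 0.14. The mitochondrial folate enzyme Aldh1l2 rose by 0.83 on the log2 scale, cystathionine gamma-lyase (Cth) by 0.32 and the mitochondrial PEP carboxykinase Pck2 by 0.26, whereas Pycr1, the mitochondrial enzyme that makes proline, fell from 14 ± 1.21 to 6.97 ± 0.280 CPM (log2 fold change -1.01, edgeR adjusted p = 2.75e-07). Aminoacyl-tRNA synthetases, many of which ATF4 is known to induce, had 1 of 13 higher and 3 lower, but 3 higher and 1 lower under library size alone, and 5 lower without shTlr7 replicate 3. Aars was the higher one, at 0.35, and Xpot, the nuclear exporter of tRNA in the same list, had a log2 fold change of -0.35.

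Other effectors of ATF4 and CHOP gave 3 higher and 5 lower of 14 tested, against 7 and 4 under library size alone, and 5 higher without shTlr7 replicate 4. Higher were Herpud1 at 0.56, Gadd45b at 0.52 and the autophagy gene Map1lc3b at 0.30 on the log2 scale. The call of Herpud1 was lost without shCtrl replicate 4 (edgeR adjusted p = 0.082). Lower were Vegfa at -0.96 (edgeR adjusted p = 1.40e-06), Ero1a at -0.75 and the lipoprotein receptor gene Vldlr at -0.50. Bcl2l11, which encodes the death factor BIM, was lower at -0.47 and Gadd45a at -0.16. Gdf15, Fgf21 and Pmaip1 were too low to be tested. Among basic leucine zipper partners and related factors, 1 of 13 tested genes was higher and 5 were lower, but 3 and 1 under library size alone, and 2 were higher without shCtrl replicate 2 or without shTlr7 replicate 4. Jdp2, whose product represses at ATF sites, was higher at 0.48, and Cebpb, which encodes a C/EBP partner of both ATF4 and CHOP, was lower at -0.32 (edgeR adjusted p = 0.00102).

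Among paralogues of the 10 genes, 2 of 6 tested were higher and 1 lower, all with small values. Ppp1r15b, the constitutive counterpart of Ppp1r15a, had a log2 fold change of 0.20, Sesn3 one of 0.26 and Chac2 one of -0.26, which missed the threshold under library size alone (-0.15, edgeR adjusted p = 0.0938). Of 11 tested brakes on TORC1, 4 were higher and 0 lower (edgeR), beside 29.3% and 26.8% of all tested genes. None was lower at an unadjusted p under 0.05, with DESeq2 or with limma-voom. Under library size alone 8 were higher and 0 lower, beside 5513 higher and 2491 lower of all 13393 tested genes. Castor2, a paralogue of the arginine sensor gene Castor1, stood at 53.8 ± 5.11 CPM in shTlr7 against 31.0 ± 1.35 CPM in shCtrl (log2 fold change 0.80), and Depdc5 and Tsc2 had log2 fold changes of 0.26 and 0.22.

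The endoplasmic reticulum arms driven by ATF6 and XBP1, which respond to unfolded proteins together with the eIF2 kinase PERK, gave 5 of 18 higher and 5 lower with a median of 0.04. Under library size alone the counts were 12 and 3, and without both libraries numbered 4 they were 8 and 5. The chaperone gene Hspa5 rose from 1870 ± 81.5 to 2320 ± 125 CPM (log2 fold change 0.31), and Sdf2l1 had 0.39, while Edem1, of the degradation branch, fell from 149 ± 3.65 to 90.3 ± 3.67 CPM (-0.72) and Pdia4 had -0.38.

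Other stress signals can also induce some of the 10 genes, and their lists were called in both directions. Immediate early genes gave 1 higher and 1 lower of 20 tested, but this list depended on the libraries: without shCtrl replicate 4 it gave 6 higher, without shTlr7 replicate 4 it gave 3 higher and 2 lower, without shCtrl replicate 2 it gave 0 higher and 2 lower, without shCtrl replicate 1, shCtrl replicate 3 or shTlr7 replicate 3 it gave 0 higher, and without both libraries numbered 4 it gave 8 higher and 4 lower. Under library size alone it gave 3 higher and 1 lower. Klf2 was the higher one with all libraries, at 0.97, and Myc the lower one, at -0.31, a call that was lost without both libraries numbered 4 (edgeR adjusted p = 0.0789). Heat shock genes gave 4 higher and 1 lower of 10 tested, with Dnajb1 at 0.36, Hspb1 at 0.85 and Hspa8 at -0.29. They gave 2 lower without shCtrl replicate 4 or without shTlr7 replicate 4, while library size alone gave 7 higher and 1 lower. Hspa1a and Hspa1b are not among the tested genes, and their further copies were not examined. Hypoxia genes, a programme that also induces Ddit4, gave 2 higher (Slc2a1 at 0.38 and Egln3 at 0.64) and 2 lower (Vegfa at -0.96 and Pdk1 at -0.26) of 10, and 5 lower without shTlr7 replicate 2, and Pdk1 missed the threshold under library size alone. Of 3 tested glucocorticoid-induced genes, a class to which Ddit4 also belongs, Klf9 was lower at -0.63 and Per1 higher at 0.18. Per1 was the only higher call of that list, which was lost without any 1 of 6 libraries (all but shCtrl replicate 1 and shTlr7 replicate 4), and without shTlr7 replicate 1, or without shTlr7 replicate 4, 2 genes were lower.

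**Figure D5:**
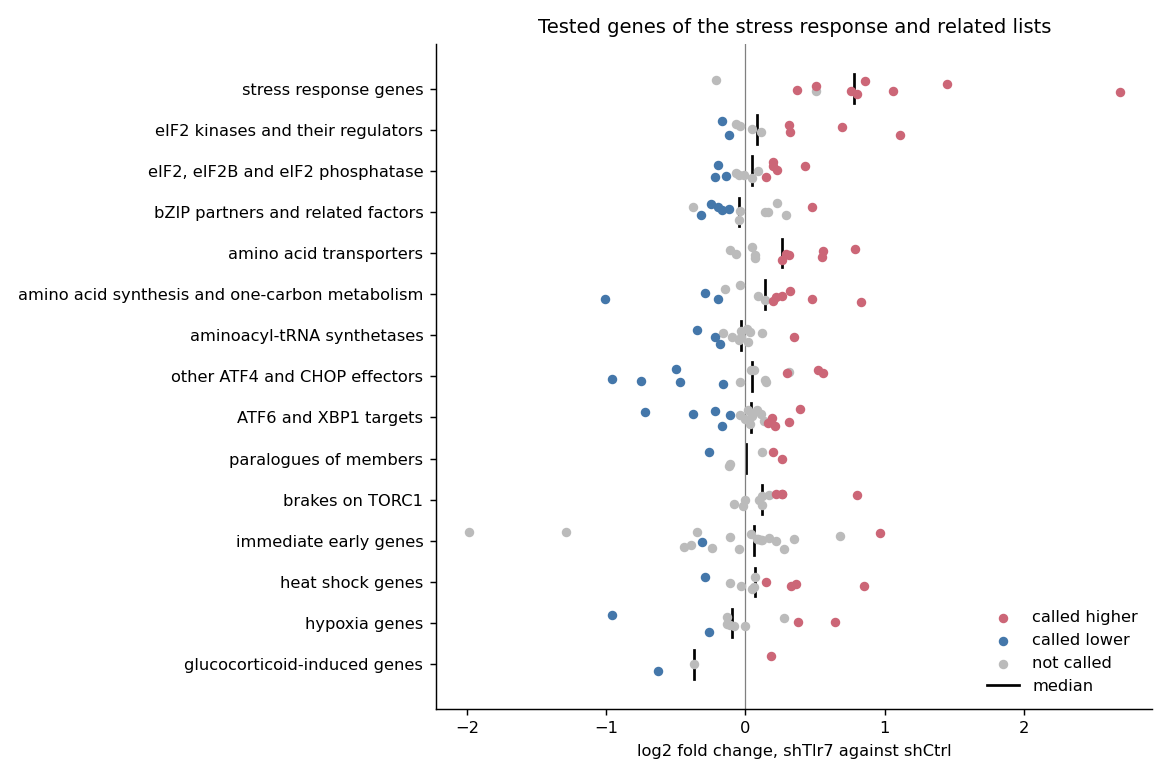
Log2 fold change of shTlr7 against shCtrl (horizontal axis) for each tested gene of the 10 stress response genes and of 14 related lists (rows), coloured by call, with the median of each list as a black bar. The median is 0.78 for the stress response genes and lies between -0.37 and 0.26 for the related lists.

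The genes whose profile over the 8 libraries was most like that of the 10 genes were sought after subtracting group means, so that the group difference itself was not used. Among 9354 genes whose log2 CPM averaged 3 or more, those closest to the mean profile of the 10 were Zfand2a (r = 0.991), Lgals3 (0.987), Vps37b (0.984), Slc3a2 (0.982) and Lrrn4cl (0.979). Closest to Atf3 were Rhob (0.989), B3gnt2 (0.985), Sik1 (0.985), Sqstm1 (0.984) and Lrrn4cl (0.980). Of these, Vps37b, Slc3a2 and Rhob were higher in shTlr7, with log2 fold changes of 0.46, 0.56 and 0.85, and Sik1 was lower at -0.91 (edgeR adjusted p = 3.07e-05). These correlations are descriptions over 8 libraries, in which those numbered 4 hold extreme values, and with this many candidates high values are common.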

How the data were processed

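The values are raw whole-number counts, which the authors deposited as a single gene-by-library table. STAR 2.7.5, DESeq2 1.32.0 and the build GRCm38 are named without a role, per the submitters' processing notes. Neither the counting program nor its strand setting or annotation is given in the sources used here. The table was fitted with edgeR 4.0.16 (R 4.3.3): filterByExpr on the groups left 13393 genes, which were scaled by TMM and fitted with the robust quasi-likelihood test, group as the only term. SEs are the log2 fold change over the square root of F. CPM uses TMM-scaled library sizes, and log2 CPM a prior count of 2. Groups come from the sample titles.

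The 10 genes and all lists were chosen with earlier results of these data known. Genes of a pathway list given with a fold change are among its 4 non-members with the lowest p, and some that this rule takes are not named. The other effectors of ATF4 and CHOP are an exception, since all called genes of that list are given. Cell type markers and untested genes are also named outside this rule. Coordinates are those of RefSeq genes on GRCm38.p6. On simulated data over 13393 genes of this comparison 62% of 50 genes simulated at 1.3-fold were recovered, as were 92% of 50 at 2-fold, and unchanged genes made up 5.08% of 177 calls. The simulation changed far fewer genes than were called here and held no shared deviation of the libraries numbered 4. These shares therefore need not hold for the calls reported. No 2 libraries of a group agreed within sampling noise (chi-square per degree of freedom 2.18 to 22.5). Alternatives were other scalings, filters, thresholds and tests (DESeq2 1.42.0, limma 3.58.1), the replicate number or the libraries numbered 4 as a term, thinning to 18.1 M counts, and leaving out libraries.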

Additional observations from a re-analysis of the deposited data

Results flagged for a closer look

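Of 144 sets of 4 libraries examined (72 named genes in each group), 7 held a library far from the other 3, with a gap to the nearest above Dixon's critical share of the whole range, and chance flags about 1 in 20 such groups. In 6 of the 7 that library was shCtrl replicate 4 and in the other it was shTlr7 replicate 4. Ddit4 was flagged in both groups: 541 CPM in shCtrl replicate 4 against 310 to 334 CPM (gap 0.894 of the range), and 473 CPM in shTlr7 replicate 4 against 269 to 284 CPM (0.927). Trib3 stood at 18 CPM in shCtrl replicate 4 against 26.5 to 28.1 CPM (0.839), and Asns at 57.7 CPM against 73.6 to 76.2 CPM (0.858). In the same library Fosb stood at 242 CPM against 36.6 to 58.1 CPM (0.896), Junb at 541 CPM against 366 to 390 CPM (0.864) and Hspa8 at 789 CPM against 892 to 909 CPM (0.860). Atf3 and Chac1 in shTlr7 were not flagged, since their replicates 1 to 3 also differed.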

How the results depend on the processing

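Of the 10 genes 8 were called higher, and the count ranged from 7 to 9 without 1 library, with 0 lower throughout. A required fold of 1.5 (glmTreat) left 2 of the 10 genes higher, Atf3 and Atf5, with 472 genes of the table higher and 666 lower, and 2 list genes higher and 3 lower. Library size alone gave 74 list genes higher and 14 lower, where the count ranged from 37 to 49 higher and from 29 to 35 lower without 1 library. Ddit4 was the 1 gene called lower with the replicate block, with the libraries numbered 4 as a term and without both of them. Its log2 fold change ranged from -0.45 (without shTlr7 replicate 4) to 0.01 (without shCtrl replicate 4, where its sign changed) without 1 library. The median SD of the 10 genes in shTlr7 was 0.302, and from 0.180 to 0.345 without 1 library. No promoter of the 10 genes held the longer motif (0 genes).

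Same-numbered libraries correlated at -0.01, 0.11, 0.12 and 0.38 in their deviations, not all above 0.1, so the numbers are not taken as pairing. With the replicate number as a block, 4334 genes were higher and 4005 lower, and of the 10 genes 8 were higher and 1 (Ddit4) lower. Depth did not limit the 10 genes, whose lowest count was 284, but it leaves Tlr7 untested.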
